A study of Mus musculus with 21 samples.

Results

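The proteasome subunit genes were followed in the lungs of 3 inbred mouse strains given bleomycin, a DNA-breaking antibiotic that injures and scars the lung. The members were all probe sets of an Affymetrix array whose annotation names exactly 1 gene symbol beginning with Psma, Psmb, Psmc, Psmd or Psme, leaving out the immunoproteasome genes Psmb8, Psmb9 and Psmb10. This rule found 73 of the 20380 probe sets with 1 symbol, for 40 of 12393 genes. Of these, 38 are genes of the proteasome, its assembly factors or its activators; Psmc3ip and Psme3ip1 share only the prefix, encode no proteasome subunit, and were kept because the rule takes them. The gene Psme2 was not a member, since its probe set carries a second symbol. With each gene represented by its probe set of highest mean signal, and the dimmest 33.3% of probe sets left out, 39 of the 40 genes were tested. The one left out was Psma8, which encodes a testis form of an alpha subunit and lay at the 14.3rd percentile of mean signal on the array.

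The proteasome is the protease of the ubiquitin system. Its 20S core is a barrel of stacked rings: outer alpha rings form the gate, and inner beta rings hold the proteolytic sites of Psmb5, Psmb6 and Psmb7. The 19S regulatory particle caps the barrel, and consists of a ring of ATPases encoded by Psmc genes, which unfold substrates, and of non-ATPase subunits encoded by Psmd genes, which bind and trim ubiquitin chains. Psme genes encode other caps that open the gate without needing ubiquitin. Cells that are short of proteasome activity raise the transcription of subunit genes together through the factor Nfe2l1, and interferon exchanges the catalytic beta subunits for the immunoproteasome forms Psmb8, Psmb9 and Psmb10.

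The 21 arrays covered 10 groups of the strains A/J, C3H/HeJ and C57BL/6. Each array held RNA of the whole right lung pooled from 3 to 5 mice of 1 sex. Controls of each strain comprised 1 male and 1 female pool, and what these mice received and their ages were not given in the sources used here. Treated mice received bleomycin by osmotic minipump, a small device that releases a drug slowly. In the main design males received 100 mg/kg and females 125 mg/kg, so that sex and dose cannot be told apart among treated lungs. Lungs were taken at 3 weeks in every strain (1 male and 1 female pool in C3H/HeJ and in C57BL/6), and the A/J group at 3 weeks held 4 pools, with an additional male pool at 80 mg/kg and a female pool at 100 mg/kg. Lungs at 6 weeks came from 1 pool of each sex in A/J and in C3H/HeJ, and from 1 female pool at 125 mg/kg in C57BL/6. Moribund C57BL/6 mice, labelled as sick, gave 1 male pool at 100 mg/kg and 1 female pool at 125 mg/kg, with no time stated. No group was confined to 1 cell type, and in such bulk tissue a higher share of a cell type and more RNA per cell cannot be told apart. The p-values rest on the spread between pools that remains after a common difference between the sexes. Pools within a group always differed in sex, dose or both. This spread is therefore not one between like pools, and can hold effects of dose and of sex that vary between groups.

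The labelled tissue was checked on epithelial markers: Sftpc, the surfactant protein C gene, lay at or above the 99.9th percentile of signal on every array. The median deposited signal of an array ranged from 58.55 to 111.3, which is 1.90-fold, and the arrays were therefore brought to a common distribution before any comparison. The ratio of the 3 prime to the 5 prime probe set of Gapdh, a measure of RNA integrity, ranged from 0.770 in the male moribund C57BL/6 pool to 2.08 in the female C3H/HeJ pool at 6 weeks. Proteasome transcripts were among the brighter ones. Psmb7, the trypsin-like catalytic subunit, had a normalized signal of 1615 to 2303 over the 21 arrays and lay at the 98.5th percentile of mean signal, and the dimmest gene tested was Psmc3ip at the 38.9th percentile. Levels of different probe sets are not compared further, because probes differ in brightness.

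In C57BL/6 lungs at 3 weeks, most proteasome genes stood slightly above control. The log2 change was positive for 35 of 39 genes with a median of 0.25, against 51.0% of all 9079 genes tested with a median of 0.01. Psmd8, Psmd2 and Psme4 rose (limma, Benjamini-Hochberg adjusted p under 0.05) and no gene fell. These 3 calls of 39 are a smaller share than the 13.1% of all genes called in this comparison, in either direction, so the number of calls does not set the proteasome genes apart. At an unadjusted p under 0.05, 13 of 39 genes were higher and 0 lower, beside 26.3% of all genes in either direction. In 28 of the 39 genes both treated pools lay above both controls, and in 2 both lay below; over all genes these shares were 31.1% and 28.8%. This description of the list was not tested as a list.

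Psmd8, a non-ATPase subunit of the 19S lid, gave the clearest difference. Its normalized signal was 592 in the male and 523 in the female C57BL/6 control pool, 910.5 and 837 at 3 weeks, 759 in the single female pool at 6 weeks, and 883 and 1037 in the moribund male and female pools. All 5 treated C57BL/6 pools thus lay above both controls. The log2 change was 0.63 at 3 weeks (SE 0.14, limma adjusted p = 0.00524) and 0.76 in moribund mice (SE 0.14, limma adjusted p = 0.00109). In A/J the signal was 621 and 524 in controls and 695, 773, 606 and 787 at 3 weeks, so that 1 treated pool fell between the controls. The A/J change of 0.31 (SE 0.12, limma adjusted p = 0.325) did not pass the test. In C3H/HeJ both treated pools, at 747 and 745, lay above the controls at 656 and 609, with a change of 0.23 (SE 0.14, limma adjusted p = 0.431). Averaged over the 3 strains Psmd8 rose by 0.39 at 3 weeks (SE 0.08, limma adjusted p = 0.00177), and it was called in this average and in the moribund comparison without each of the 21 arrays in turn. The call at 3 weeks in C57BL/6 was lost without the male treated pool (adjusted p = 0.0648) and without the female control (adjusted p = 0.0631).

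Psmd2, which encodes the large scaffold subunit Rpn1 of the 19S base, had signals of 687 and 670.4 in the C57BL/6 male and female controls, 1074 and 938 at 3 weeks, 741 at 6 weeks, and 799 and 1188 in the moribund pools. The treated pools were all above the controls, and the moribund female stood far above the moribund male. The log2 change was 0.55 at 3 weeks (SE 0.17, limma adjusted p = 0.0374) and 0.51 in moribund mice (SE 0.17, limma adjusted p = 0.0493). At 3 weeks the call was lost without either C57BL/6 control or either treated pool (limma adjusted p up to 0.256). The moribund call held in 4 of 21 fits that each left out 1 array, and without the moribund female the change was 0.16 (limma adjusted p = 0.626). Outside C57BL/6 the signal was 727 and 715 in A/J controls against 829.3, 749, 714 and 785 at 3 weeks, and 744 and 597 in C3H/HeJ controls against 891 and 674. These groups overlapped in both strains.

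Psme4 encodes PA200, a single-chain activator that caps the 20S core in the nucleus. Its signal was 368 and 339 in the C57BL/6 controls, 498 and 475 at 3 weeks, 424 at 6 weeks, and 447 and 558 in moribund pools, again with no overlap between treated and control. The log2 change was 0.44 at 3 weeks (SE 0.14, limma adjusted p = 0.0470) and 0.48 in moribund mice (SE 0.14, limma adjusted p = 0.0285). The gene has 3 probe sets, and the other ones were at 0.15 and -0.37 at 3 weeks: over the 3 probe sets the change at 3 weeks ran from -0.37 to 0.44, and in moribund mice from -0.08 to 0.48. The change reported for Psme4 therefore rests on 1 probe set. At 3 weeks it also kept its call in only 7 of 21 fits that each left out 1 array, with a limma adjusted p of 0.0329 to 0.309, highest without the male pool at 3 weeks. The moribund call was lost without either C57BL/6 control or the moribund female (limma adjusted p up to 0.257).

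**Figure D1:**
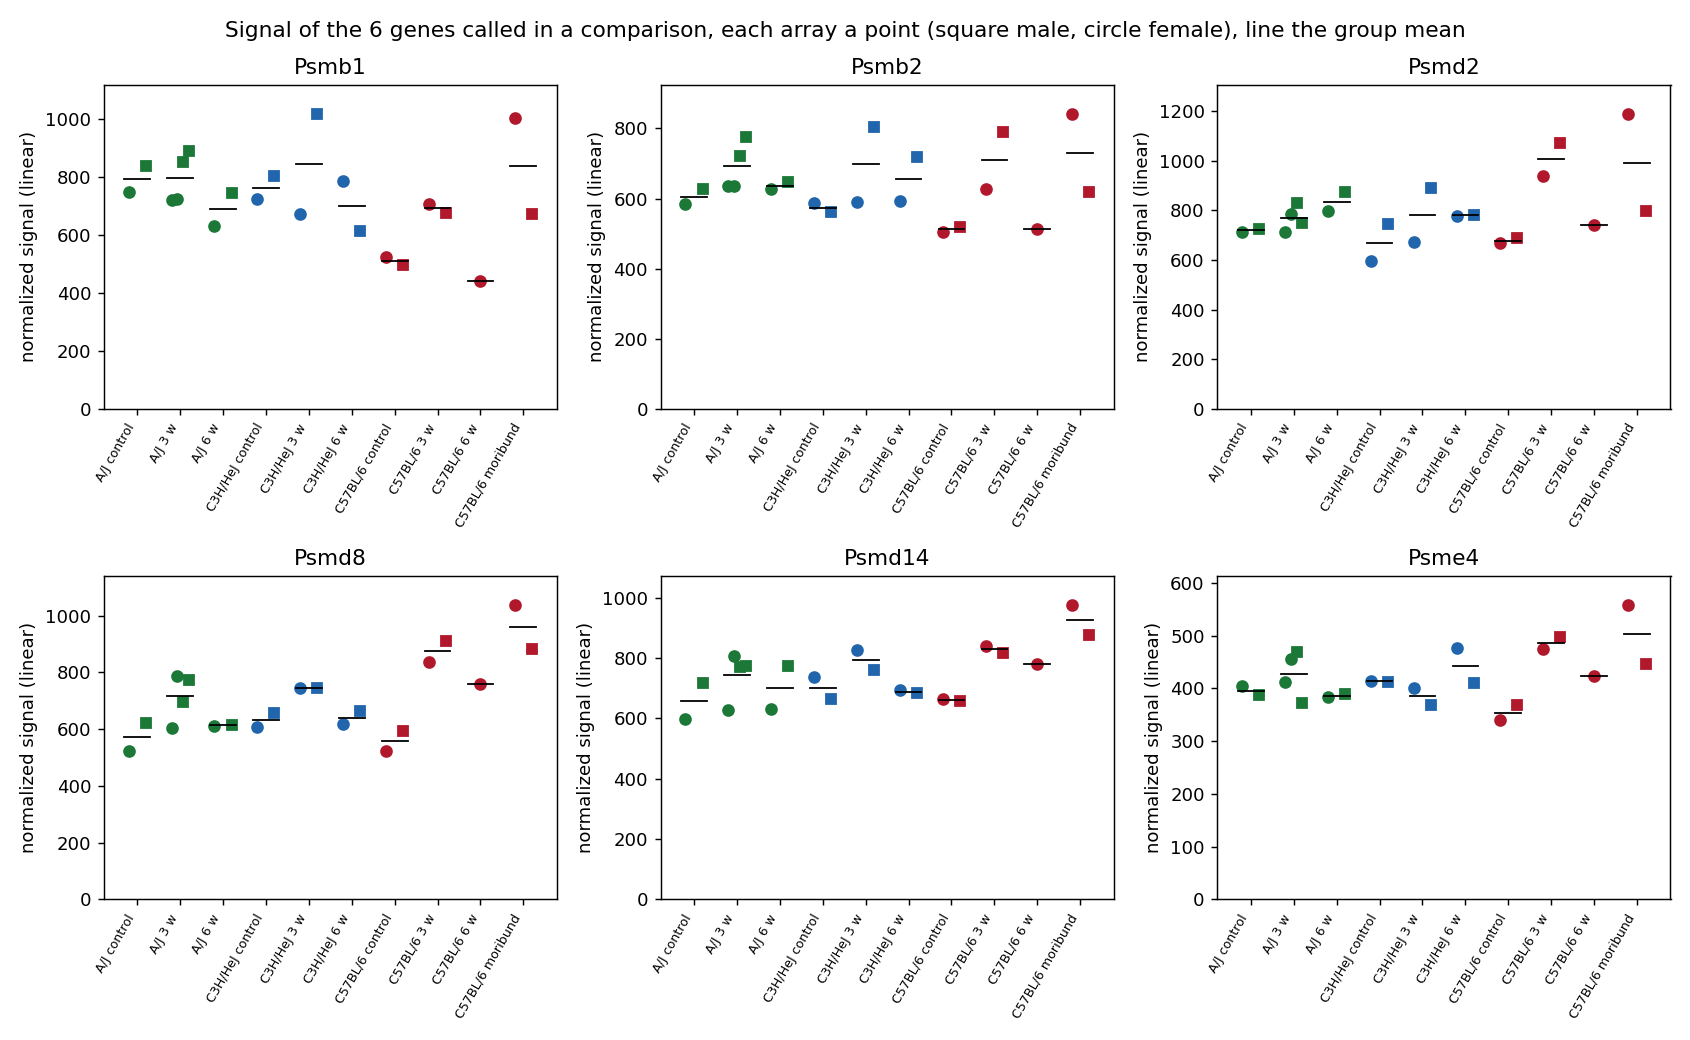
Normalized signal on a linear scale from 0 (y axis) of the 6 genes called in at least 1 comparison, by group (x axis; w, weeks); each point is 1 pool (square, male; circle, female), and the line is the group mean. For Psmd8, Psmd2 and Psme4 every treated C57BL/6 pool lies above both C57BL/6 controls, and the female moribund pool is the highest in each of the 6 genes except Psmb1, where the male C3H/HeJ pool at 3 weeks is highest at 1018.

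Promoters are shown for the genes called at 3 weeks in C57BL/6 (Psmd8, Psmd2, Psme4) and for the 2 genes that followed the other members most closely (Psmc1, Psmd12), for what they share at their start sites. Each runs from 250 bases before to 50 bases after the start of the RefSeq transcript on build GRCm38.p6. Capitals mark the GC box GGGCGG, bound by Sp1, the ETS core CCGGAAG, and TGACNNNGC, the core of the antioxidant response element that Nfe2l1 and Nfe2l2 bind, on either strand. In Psme4 the GC box and the ETS core overlap and appear as 1 run of capitals.
Psmd8, chr7:29180624-29180923 (- strand): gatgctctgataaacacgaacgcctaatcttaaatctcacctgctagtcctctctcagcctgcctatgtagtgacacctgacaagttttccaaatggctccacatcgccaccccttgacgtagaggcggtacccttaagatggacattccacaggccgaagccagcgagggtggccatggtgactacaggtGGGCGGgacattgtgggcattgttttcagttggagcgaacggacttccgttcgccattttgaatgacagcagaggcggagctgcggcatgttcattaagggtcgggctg
Psmd2, chr16:20651402-20651701 (+ strand): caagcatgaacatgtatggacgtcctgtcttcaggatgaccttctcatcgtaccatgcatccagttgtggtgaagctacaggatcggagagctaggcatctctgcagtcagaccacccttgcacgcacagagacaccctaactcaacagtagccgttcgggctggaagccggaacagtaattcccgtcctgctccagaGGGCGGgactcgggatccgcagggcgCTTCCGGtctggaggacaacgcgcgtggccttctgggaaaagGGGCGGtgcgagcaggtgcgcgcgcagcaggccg
Psme4, chr11:30771525-30771824 (+ strand): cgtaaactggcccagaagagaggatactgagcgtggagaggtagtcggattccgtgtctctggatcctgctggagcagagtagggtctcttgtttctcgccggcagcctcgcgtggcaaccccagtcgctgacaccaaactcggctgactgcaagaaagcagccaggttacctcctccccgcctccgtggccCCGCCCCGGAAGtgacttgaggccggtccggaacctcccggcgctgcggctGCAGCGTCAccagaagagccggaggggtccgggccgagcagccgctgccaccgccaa
Psmc1, chr12:100109952-100110251 (+ strand): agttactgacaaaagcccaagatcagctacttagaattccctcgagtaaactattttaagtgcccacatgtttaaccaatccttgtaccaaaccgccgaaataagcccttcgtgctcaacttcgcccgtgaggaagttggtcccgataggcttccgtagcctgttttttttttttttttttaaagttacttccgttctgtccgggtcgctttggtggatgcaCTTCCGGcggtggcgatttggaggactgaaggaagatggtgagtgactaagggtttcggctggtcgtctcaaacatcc
Psmd12, chr11:107479278-107479577 (+ strand): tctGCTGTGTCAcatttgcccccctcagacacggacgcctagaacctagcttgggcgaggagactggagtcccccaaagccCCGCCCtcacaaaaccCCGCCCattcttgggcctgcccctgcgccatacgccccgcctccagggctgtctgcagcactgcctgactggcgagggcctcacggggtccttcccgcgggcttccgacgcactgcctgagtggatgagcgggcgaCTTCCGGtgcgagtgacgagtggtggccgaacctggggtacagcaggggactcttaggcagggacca

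The ETS core lay 26 bases before the start in Psmd2, 53 before it in Psme4, 28 before it in Psmc1 and 17 before it in Psmd12, and was not in the Psmd8 window. A promoter was given for 33 of the 40 member genes. Of these, 14 (42.4%) held the ETS core, beside 12.9% of protein-coding genes and 8.9% of all promoters of this length in the table. The GC box was in 21 (63.6%), beside 49.2% of protein-coding genes and 35.7% of promoters. The CCAAT box was in 14 (42.4%), beside 42.3% and 37.4%, and TATAAA in 3 (9.1%), beside 14.8% and 13.6%. TGACNNNGC was in 6 (18.2%), beside 14.8% of protein-coding genes and 12.4% of promoters, and Psme4 held it 7 bases before the start. These are matches of letters, not binding sites, and say nothing of which factor bound. Of the 4 called genes with a promoter in the table, 2 held the ETS core and 4 the GC box.

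The values at 3 weeks in C57BL/6 are given by the arms of the complex, on the brightest probe set of each gene. All 7 beta ring genes were positive on these probe sets, with a median of 0.35 and a range from 0.29 for Psmb7 to 0.45 for Psmb6. Dimmer probe sets were at -0.20 for Psmb1, -0.01 for Psmb3 and 0.30 for Psmb4. On the brightest ones 5 of the 7 genes had an unadjusted p under 0.05, as had 26.3% of all genes in either direction, while 0 passed limma's adjusted threshold. The alpha ring genes had a median of 0.11, with 5 of 7 positive and Psma3 lowest at -0.20, and 0 passed limma's threshold at either the adjusted or the unadjusted level. Of the 6 ATPase genes 5 were positive, with a median of 0.32; Psmc5 was at -0.00, and 2 of the 6 had an unadjusted p under 0.05 with limma. The 11 non-ATPase subunits were all positive on these probe sets with a median of 0.25, from 0.01 for Psmd1 to 0.63 for Psmd8. Dimmer probe sets of Psmd11 ran from -0.05 to 0.29, and those of Psmd4, Psmd6 and Psmd13 were positive. The assembly chaperones Psmd5, Psmd9 and Psmd10, which help to build the 19S base and then leave it, ran from 0.13 to 0.25. Whether the arms differ from each other was not tested.

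The catalytic subunits were close together in C57BL/6. Psmb5, the chymotrypsin-like site, had signals of 678 and 763 in controls and 953 and 857 at 3 weeks, a log2 change of 0.32 (SE 0.14, limma adjusted p = 0.161). Psmb6, the caspase-like site, had 511 and 555 in controls and 786 and 685 at 3 weeks, a change of 0.45 (SE 0.18, limma adjusted p = 0.121). Psmb7 had 1615 and 1682 in controls and 2045 and 1984 at 3 weeks, a change of 0.29 (SE 0.12, limma adjusted p = 0.135). In these 3 genes the treated pools lay above both controls, and 0 of them passed limma's adjusted threshold, although each had an unadjusted p under 0.05. Psmb2, a structural beta subunit, had 518 and 505 in controls and 790.0 and 627 at 3 weeks; its change of 0.45 (SE 0.16, limma adjusted p = 0.0856) did not pass within C57BL/6, while the average over the 3 strains rose by 0.30 (SE 0.09, limma adjusted p = 0.0312). That call held in 13 of 21 fits with 1 array left out (limma adjusted p up to 0.113, without the male C57BL/6 pool at 3 weeks).

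Other subunits fixed for description gave the following values in C57BL/6 at 3 weeks. Psmc1, the ATPase Rpt2, had signals of 259 and 255 in controls and 429 and 314 at 3 weeks, a log2 change of 0.49 (SE 0.24, limma adjusted p = 0.198). Psmd14, the deubiquitinase Rpn11 that removes ubiquitin chains, had 657 and 665 in controls and 818 and 839.9 at 3 weeks, a change of 0.32 (SE 0.14, limma adjusted p = 0.163). Both of these genes lay above control in both treated pools. Psmd4, the ubiquitin receptor Rpn10, was at 0.17 (SE 0.12), Psmd1, the scaffold Rpn2, at 0.01 (SE 0.15), and Psma1 at 0.11 (SE 0.14), all far from the threshold. Psmd1 and Psma1 overlapped between treated and control pools.

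A few genes stood on the other side. Psma3, an alpha subunit, had 1173 and 1191 in the C57BL/6 controls and 1028 and 1029 at 3 weeks, a log2 change of -0.20 (SE 0.11, limma adjusted p = 0.262). Psme3, which encodes the nuclear PA28 gamma cap, had 151 and 147 in controls against 118 and 131, a change of -0.23 (SE 0.17, limma adjusted p = 0.421). In both genes the treated pools lay below both controls without passing the test. Psme1, the PA28 alpha cap that interferon induces, had 836 and 906 in controls and 1033 and 1146 at 3 weeks, with a change of 0.32 (SE 0.13, limma adjusted p = 0.121). The 3 activator genes thus gave 2 positive values and 1 negative one.

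**Figure D2:**
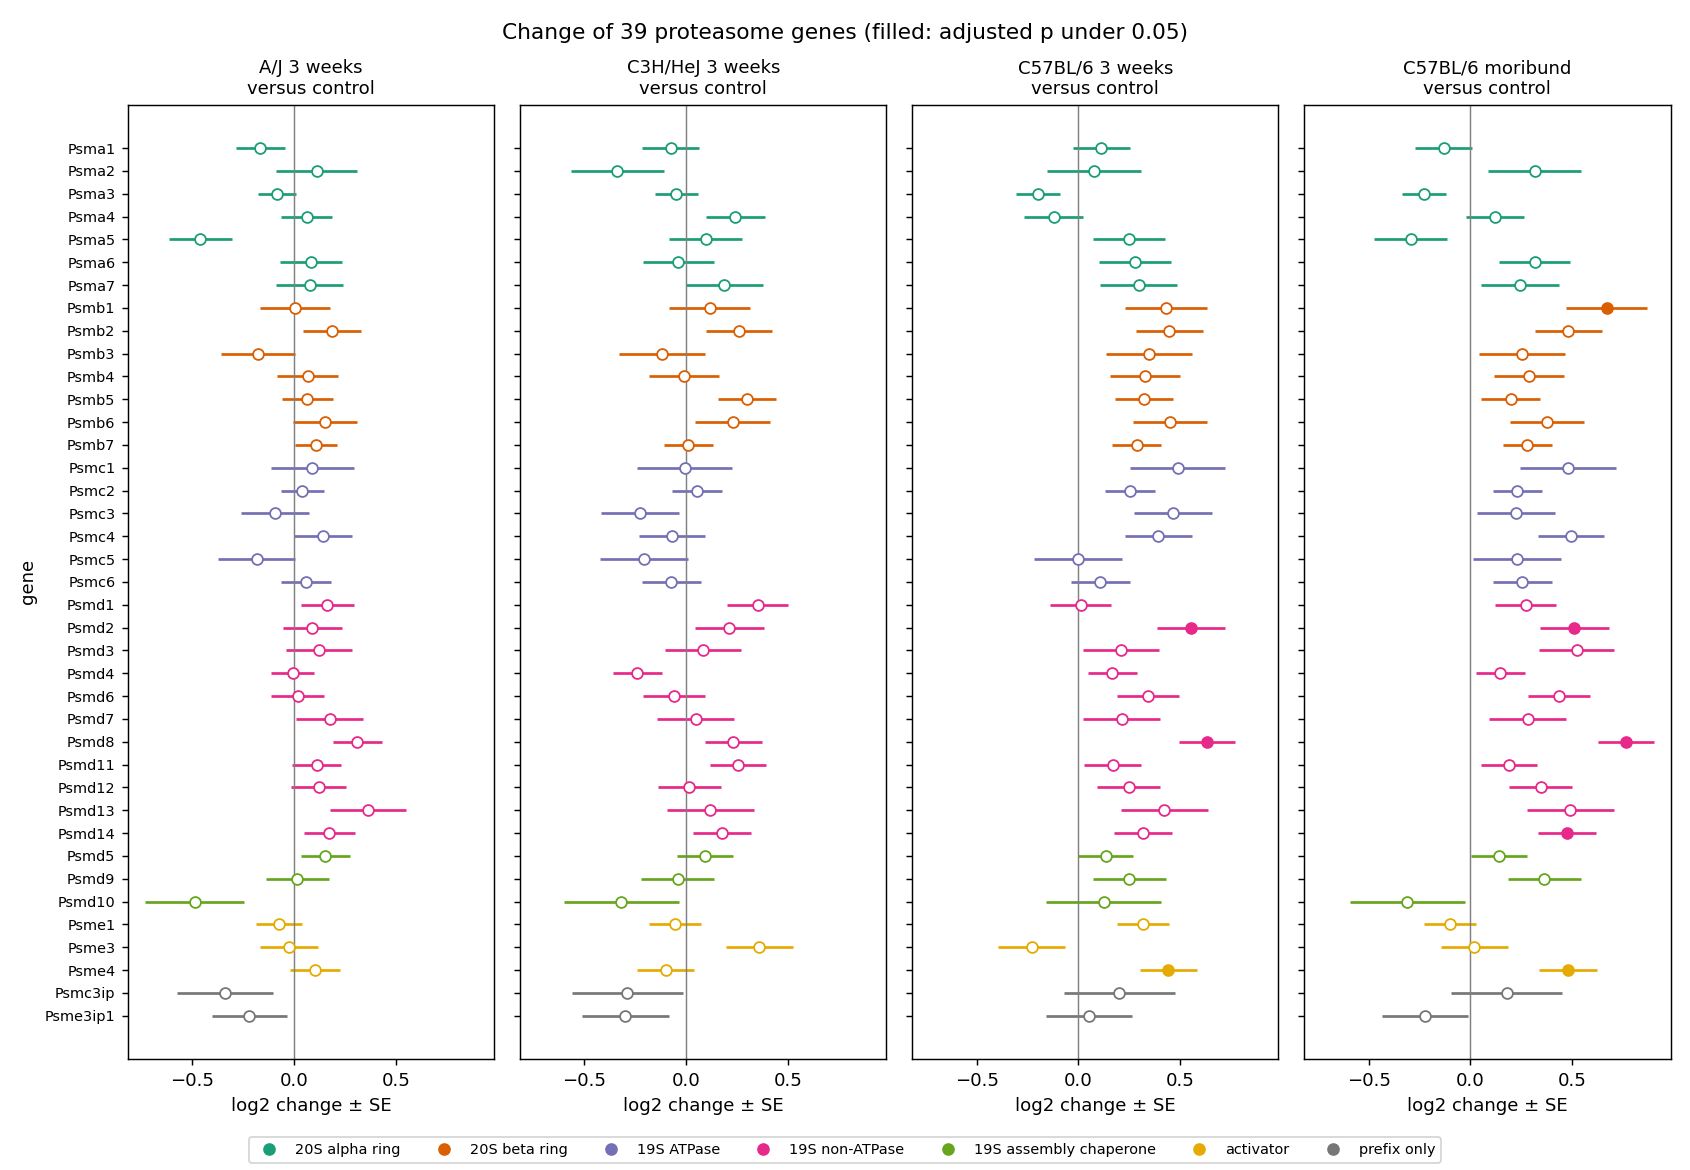
Log2 change with its standard error (x axis) of the 39 tested genes (y axis, coloured by role) in A/J, C3H/HeJ and C57BL/6 at 3 weeks and in moribund C57BL/6, each against the controls of its strain; filled points have an adjusted p under 0.05. In both C57BL/6 panels the beta ring, ATPase and non-ATPase points lie almost wholly to the right of 0, with 3 and 5 filled points, and in A/J and C3H/HeJ no point is filled.

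Moribund C57BL/6 lungs showed values of the same order. The median log2 change was 0.27 with 33 of 39 genes positive, against a median of 0.00 and 50.1% of all genes. Psmd8, Psmb1, Psmd2, Psme4 and Psmd14 rose and no gene fell; 5 of 39 is close to the 15.2% of all genes called, so this count too is no more than the background. At an unadjusted p under 0.05, 12 of 39 genes were higher and 0 lower, beside 28.6% of all genes in either direction. In 25 genes both moribund pools lay above both controls and in 5 both lay below, against 27.3% and 28.1% of all genes. On the brightest probe set of each gene the non-ATPase subunits had the highest median, 0.44 with all 11 positive and 3 called. The beta ring had 0.29 with 7 of 7 positive, the ATPases 0.24 with 6 of 6 positive, and the alpha ring 0.12 with 4 of 7 positive.

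Psmb1, a structural beta subunit, had signals of 496 and 525 in the male and female C57BL/6 controls, and 672 and 1004 in the moribund pools. Its log2 change was 0.67 (SE 0.20, limma adjusted p = 0.0306), and without the moribund female it was 0.32. A second probe set of Psmb1 was at 0.08 (SE 0.26) in this comparison, so the rise rests on 1 probe set. Psmd14 had 657 and 665 in controls and 876 and 976 in moribund pools, with a change of 0.47 (SE 0.14, limma adjusted p = 0.0326) and no overlap. The calls of Psmb1 and Psmd14 were both lost without the moribund female (limma adjusted p = 0.413 and 0.232) and without either C57BL/6 control. Psmc4, the ATPase Rpt3, was at 0.49 (SE 0.16, limma adjusted p = 0.0507), just beyond the threshold, while its second probe set was at -1.07 (SE 0.48). Of the fixed genes not called, Psmc1 was at 0.48 (SE 0.24), Psmb6 at 0.38 (SE 0.18), Psmb7 at 0.28 (SE 0.12), Psmd1 at 0.27 (SE 0.15), Psmb5 at 0.20 (SE 0.14), Psmd4 at 0.15 (SE 0.12), Psme3 at 0.02 (SE 0.17), Psme1 at -0.10 (SE 0.13) and Psma1 at -0.13 (SE 0.14).

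The 2 moribund pools differed from each other. Their arrays also differed in brightness, with a deposited median of 78.7 in the female and 104.15 in the male pool. The median deviation of the 39 genes from their means over all arrays was 0.28 in the female pool, the highest of any array, with 32 genes above their own mean, and 0.01 in the male pool, with 20 above. Psmc1 shows the split: it was 494 in the female and 269 in the male, beside controls at 255 and 259. Leaving out the female pool reduced the calls to 1, Psmd8, and the median change to 0.11, while leaving out the male pool raised them to 13 and the median to 0.41. Each of these fits had 1 moribund pool, assumed to vary like the other groups. Leaving out either C57BL/6 control left 1 call, and leaving out either C3H/HeJ pool at 3 weeks, which enters only through the shared spread, gave 8.

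**Figure D3:**
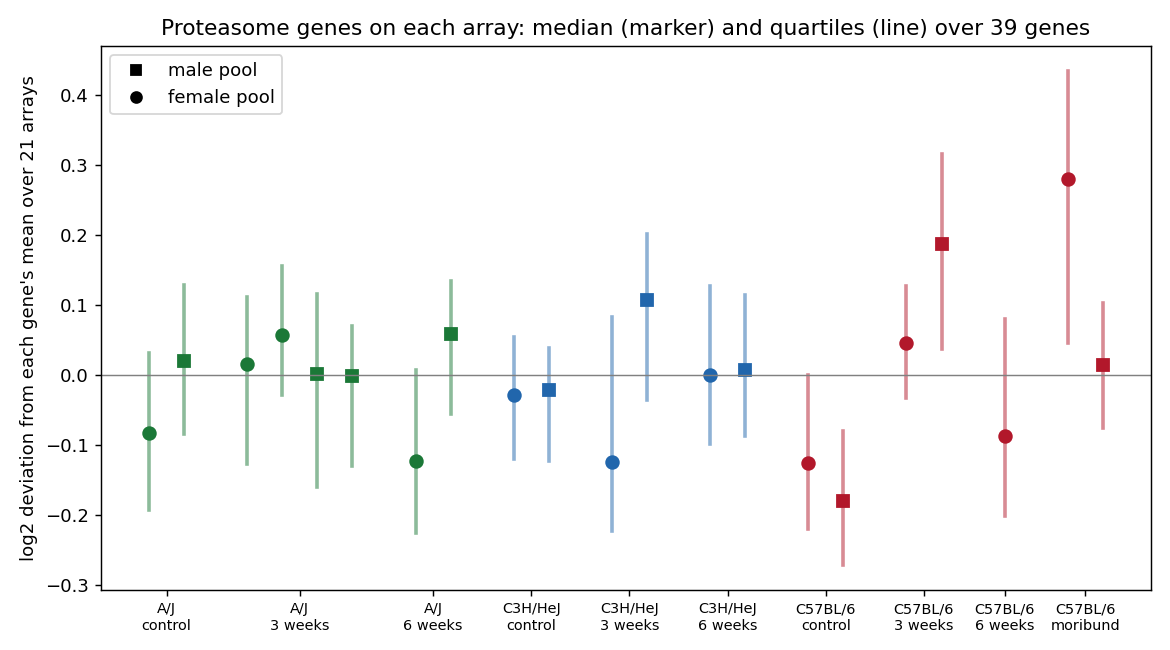
Median (marker) and quartiles (line) over the 39 genes of the log2 deviation from each gene's mean over the 21 arrays (y axis), for each array by group (x axis; square, male pool; circle, female pool). The male C57BL/6 control lies lowest at -0.18. The female C57BL/6 control, at -0.13, is close to the female C3H/HeJ pool at 3 weeks and the female A/J pool at 6 weeks, both at -0.12. The C57BL/6 pools at 3 weeks lie at 0.19 and 0.05, and the moribund pools at 0.28 and 0.01.

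Scaling bears on the level of all these values. The C57BL/6 control arrays had deposited medians of 109.35 and 111.3. These were above the 85.7 and 100 of the pools at 3 weeks and the 104.15 and 78.7 of the moribund pools. Brightness and treatment thus went together in these comparisons. With the array median as a covariate, the proteasome median in moribund mice was 0.23, beside -0.01 over all genes. In the signals as deposited, with no normalization, the median over all genes was itself shifted by -0.16 at 3 weeks and by -0.28 in moribund mice, and 0 proteasome genes were called in either C57BL/6 comparison by limma. There the proteasome median was 0.16 at 3 weeks and -0.02 in moribund mice, so its direction in moribund mice flipped, while both remained above the median of all genes. The excess of the proteasome median over the median of all genes was 0.25 at 3 weeks, and ranged from 0.22 to 0.34 over the other settings and from 0.17 to 0.31 when single arrays were left out. In moribund mice it was 0.27, with ranges of 0.20 to 0.29 and 0.13 to 0.38. The count of calls at 3 weeks fell to 0 without the male treated pool or the female control of C57BL/6, and to 1 without the male control or the female treated pool.

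Moribund lungs were not separated from C57BL/6 lungs at 3 weeks. Of the 39 genes 0 were called by limma, which called 0 of all genes (0%). At an unadjusted p under 0.05, which 9.76% of all genes had in either direction, 0 were higher and 2 lower. These were Psma5, an alpha subunit, at -0.54 (SE 0.18) and Psme1 at -0.42 (SE 0.13). Psma5 had 754 and 664 at 3 weeks and 498 and 465 in moribund pools; Psme1 had 1033 and 1146 at 3 weeks and 836 and 785. On these probe sets both genes were therefore near or below their control values, 566 and 620.4 for Psma5 and 836 and 906 for Psme1, when mice were moribund. On the second probe set of Psma5 the moribund pools, at 402 and 419, lay above the controls at 392 and 346. There they overlapped the pools at 3 weeks, at 403 and 435.

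The single C57BL/6 pool at 6 weeks allowed no test. It lay above the mean of the controls in 24 of 39 genes, with a median log2 difference of 0.05, where all genes gave 44.5% and -0.04. Set against the female control alone, 20 of 39 genes were higher, with a median of 0.00. Psmd8, Psmd14 and Psme4 kept signals above both controls, at 759, 779 and 424, whereas Psmb1 at 442 lay below both and Psmb2 at 513 lay between them.

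In A/J lungs at 3 weeks the proteasome genes stood near control. The median log2 change was 0.07 with 27 of 39 genes positive, beside 48.4% of all genes and a median of -0.01. With 1 array left out the median ran from 0.02 to 0.08 and the positive genes from 22 to 28. By limma 0 genes were called, where 1.04% of all genes were. At an unadjusted p under 0.05, 1 was higher, Psmd8, and 1 lower, Psma5, beside 11% of all genes in either direction. Psma5 had signals of 579 and 537 in the controls and 406, 444, 339 and 419.7 at 3 weeks, all below the controls, with a change of -0.46 (SE 0.16, limma adjusted p = 0.223). The second probe set of Psma5 was at 0.28 (SE 0.19), with 390.2 and 546 in controls and 554, 682, 567 and 467 at 3 weeks, so the direction depends on the probe set. The catalytic genes gave 0.06 for Psmb5 (SE 0.12), 0.15 for Psmb6 (SE 0.16) and 0.11 for Psmb7 (SE 0.10). The ubiquitin-chain genes Psmd4 and Psmd14 gave -0.01 (SE 0.10) and 0.17 (SE 0.12), Psmd1 0.16 (SE 0.13), Psmc1 0.09 (SE 0.20) and Psma1 -0.17 (SE 0.12), and the caps Psme1, Psme3 and Psme4 gave -0.07 (SE 0.11), -0.03 (SE 0.14) and 0.10 (SE 0.12). Only 2 genes had all 4 treated pools above both controls and 1 had all below; with 4 pools this is harder to meet than in the other strains, and 10.5% and 12.3% of all genes met it.

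In C3H/HeJ lungs at 3 weeks the genes were divided. The median was 0.01 with 20 of 39 positive, beside 45.9% of all genes and a median of -0.03. By limma 0 genes were called, where 2.83% of all genes were. At an unadjusted p under 0.05, which 16.4% of all genes had in either direction, 2 were higher and 0 lower. These were Psmd1 at 0.35 (SE 0.15), with 327 and 336 in the male and female controls and 420.4 and 433 in the treated, and Psme3 at 0.36 (SE 0.17), with 129.9 and 125 against 167 and 169. Neither pair of groups overlapped, and Psme3 had the opposite sign in C57BL/6. The other fixed genes gave 0.30 for Psmb5 (SE 0.14), 0.23 for Psmb6 (SE 0.18), 0.01 for Psmb7 (SE 0.12), -0.01 for Psmc1 (SE 0.24), -0.24 for Psmd4 (SE 0.12), 0.18 for Psmd14 (SE 0.14), -0.08 for Psma1 (SE 0.14), -0.05 for Psme1 (SE 0.13) and -0.10 for Psme4 (SE 0.14). Another probe set of Psme4 was at 0.58 in this strain (SE 0.16, limma adjusted p = 0.0913 over all probe sets), opposite in sign. The pools of this strain disagreed: the median deviation of the 39 genes was 0.11 in the treated male and -0.12 in the treated female, so that the change had a median of -0.12 without the male and 0.14 without the female.

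Genes higher in every strain outnumbered genes higher in none. The comparisons at 3 weeks use different arrays in each strain, and 17 of 39 genes (43.6%) were higher than control in all 3 strains, beside 20.8% of all genes, while Psma3 and Psmc5 (5.13%) were higher in none, beside 23.7%. A sign shared by all strains, in either direction, was thus about as common as among all genes, and the balance lay toward higher values. The 17 held 5 of the beta genes (Psmb1, Psmb2, Psmb5, Psmb6 and Psmb7), 1 alpha gene (Psma7), 1 ATPase gene (Psmc2), 9 non-ATPase subunits and the chaperone Psmd5. In the average over the strains 3 genes rose, Psmd8, Psmb2 and Psmd2, and none fell, a smaller share than the 17% of all genes called. Psmd2 rose by 0.29 in this average (SE 0.09, limma adjusted p = 0.0438), a call kept in 5 of 21 fits with 1 array left out, and Psmb5 missed the threshold at 0.23 (SE 0.08, limma adjusted p = 0.0578). At an unadjusted p under 0.05, 9 of 39 genes were higher and 0 lower, beside 29.7% of all genes in either direction. Without 1 array the calls numbered 1 to 5, with 5 without the female C3H/HeJ pool at 3 weeks and 1 without an A/J control, a C57BL/6 control, the male C57BL/6 or the male C3H/HeJ pool at 3 weeks.

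The difference between the strains' responses was tested directly. The response at 3 weeks was larger in C57BL/6 than in A/J for 33 of 39 genes with a median difference of 0.23, and larger than in C3H/HeJ for 34 of 39 with a median of 0.28; all genes gave 51.8% and 53.6%. These comparisons share the C57BL/6 arrays and so do not support each other. By limma 0 genes were called in either, where 1.56% and 0.297% of all genes were. An unadjusted p under 0.05 was found for 15% and 14.7% of all genes, in either direction. Of the proteasome genes, 3 were higher and 0 lower at that level in the first, and 3 higher and 1 lower in the second. Psmc3, the ATPase Rpt5, was among them in both, with differences of 0.56 (SE 0.25) and 0.69 (SE 0.27). Psme3 was the one lower gene against C3H/HeJ, at -0.59 (SE 0.23). C3H/HeJ and A/J differed in 0 genes by limma, where 0.011% of all genes were called, with a median difference of -0.02. At an unadjusted p under 0.05, 1 was higher (Psma5) and 0 lower, beside 3.98% of all genes in either direction. With 1 array left out the median difference ran from 0.15 to 0.30 against A/J and from 0.14 to 0.37 against C3H/HeJ. A larger response in C57BL/6 was not shown for any single gene.

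In control lungs the median log2 difference of the proteasome genes was -0.11 between C57BL/6 and A/J and -0.13 between C57BL/6 and C3H/HeJ, with 14 of 39 positive (35.9%) in each. All genes gave medians of -0.07 and -0.04 with 40.0% and 43.2% positive, so most of the first difference was common to the array. The excess over all genes was -0.05 against A/J, with -0.09 to 0.01 over the other settings, and -0.08 against C3H/HeJ, with -0.12 to -0.01. By limma 0 genes were called in either comparison, where 2.8% and 2.53% of all genes were. At an unadjusted p under 0.05, 1 was higher and 5 lower against A/J, beside 16.1% of all genes in either direction. Against C3H/HeJ 1 was higher and 4 lower, beside 14.7% of all genes. Psmb1 had control signals of 496 and 525 in C57BL/6, 839.6 and 748 in A/J, and 804 and 724 in C3H/HeJ, differences of -0.62 and -0.57 (SE 0.20 for both). The dimmer probe set of Psmb1 did not show this order, with control signals of 105.9 and 125 in C57BL/6, 93.1 and 99.3 in A/J, and 101 and 86.6 in C3H/HeJ. Psme1 had 836 and 906 against 1253 and 1164 in A/J and 1255 and 1089.7 in C3H/HeJ, differences of -0.46 and -0.42 (SE 0.13 for both). Psma4, an alpha subunit, was the one higher gene in both comparisons, with 1049 and 1339.9 in C57BL/6 against 841 and 816 in A/J and 882 and 956 in C3H/HeJ. A/J and C3H/HeJ controls had 0 calls by limma, where 0.958% of all genes were called, with 0 genes at an unadjusted p under 0.05 and a median difference of -0.00.

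The controls enter each change, so the level of a treated lung is given beside other strains. On its brighter probe set Psmb1 at 3 weeks was 677 and 709 in C57BL/6, below the 839.6 and 748 of A/J controls; on the dimmer one it was 105 and 90.9 against 93.1 and 99.3, which overlapped. Psmd8 at 3 weeks, 910.5 and 837, was above every control and every treated array of A/J and C3H/HeJ.

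At 6 weeks no difference from control passed the test in A/J or C3H/HeJ. By limma 0 proteasome genes were called in A/J, where 0.11% of all genes were, and 0 in C3H/HeJ, where again 0.11% of all genes were. In either strain 0 had an unadjusted p under 0.05, beside 5.25% of all genes in A/J and 4.62% in C3H/HeJ. The medians were 0.01 with 20 of 39 positive in A/J and 0.03 with 25 of 39 positive in C3H/HeJ. Set against 3 weeks, A/J at 6 weeks had 0 calls by limma, where 0.022% of all genes were called, with a median of -0.06. Psmb3 alone was higher at an unadjusted p under 0.05, which 4.75% of all genes had in either direction. C3H/HeJ had 0 calls by limma, where 0.187% of all genes were called, with a median of 0.04. Psme3 alone was lower at an unadjusted p under 0.05, at -0.41 (SE 0.17), beside 13.7% of all genes in either direction. Psme3 was 137 in the male and 109 in the female pool at 6 weeks in that strain, on either side of the control values of 129.9 and 125.

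The members varied together over the arrays. Over the 21 arrays, which share groups and normalization, the median correlation of a gene with the mean of the other members was 0.53, and the median over pairs of members was 0.27, beside 0.01 over pairs of all genes. After group means and sex were taken out the median over pairs of members was 0.22, with no such value computed over all genes. Among the ATPases the pairs had a median of 0.57, among non-ATPase subunits 0.56 and in the beta ring 0.49, while alpha ring pairs had 0.13, the chaperones -0.41 and the activators -0.23. Psmc1 followed the others most closely, at 0.90, then Psmd12, a lid subunit, at 0.87, Psmd2 at 0.84 and Psmb4, a beta subunit, at 0.83. Psma3 ran against the rest at -0.56, followed by Psme3 at -0.29 and Psmd10, the chaperone gankyrin, at -0.18. The median SD over arrays was 0.19 on the log2 scale, beside 0.25 for all genes. Most members were bright, and this comparison was not matched for brightness.

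The probe set chosen matters for several of these genes. In 16 genes more than 1 probe set passed the brightness filter. Among others, the probe sets had opposite signs in moribund mice for Psma5, from -0.29 to 0.15, for Psma6, from -0.41 to 0.32, and for Psmc4, from -1.07 to 0.49. At 3 weeks in C57BL/6 the signs were opposite for Psmc4, from -0.45 to 0.39, for Psmb1, from -0.20 to 0.43, and for Psme4, from -0.37 to 0.44. They were also opposite for Psmb3, from -0.01 to 0.35, Psmd9, from -0.09 to 0.25, and Psmd11, from -0.05 to 0.29. In the rest of the 16 genes the signs agreed in that comparison. The values there were close for Psmb4, at 0.30 and 0.33, for Psmc2, at 0.25 and 0.41, and for Psmd13, a lid subunit, at 0.32 and 0.42. Psmd8, Psmd2, Psmd14 and Psmb2 had 1 probe set each and no such check.

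The partners of the proteasome were described from a list of 37 genes, of which 27 were tested and the other 10 are not analysed here. In C57BL/6 at 3 weeks 0 were called by limma, where 13.1% of all genes were, and the median was 0.06 with 18 of 27 positive. At an unadjusted p under 0.05, which 26.3% of all genes had in either direction, 4 were higher and 0 lower. Those 4 were Ufd1 and Nploc4, cofactors of the segregase Vcp, at 0.67 (SE 0.23) and 0.33 (SE 0.15), the proteasome-bound deubiquitinase Uchl5 at 0.50 (SE 0.22), and the immunoproteasome subunit Psmb8 at 0.48 (SE 0.19, limma adjusted p = 0.103). Psmb8 had signals of 389 and 446 in controls and 538 and 643 at 3 weeks, and 555 and 368 in moribund pools. Of the other immunoproteasome genes, Psmb9 was at -0.18 (SE 0.29) and Psmb10 at 0.35 (SE 0.24). In controls the differences of C57BL/6 from A/J were -0.64 for Psmb8 (SE 0.19, limma adjusted p = 0.0773), -0.72 for Psmb9 (SE 0.29) and -0.36 for Psmb10 (SE 0.24), and 0 of these genes passed limma's adjusted threshold, while Psmb8 and Psmb9 had an unadjusted p under 0.05.

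The regulators of subunit transcription gave small values. In C57BL/6 at 3 weeks Nfe2l1 was at -0.12 (SE 0.15), Nfe2l2 at -0.03 (SE 0.19) and the assembly factor Pomp at 0.13 (SE 0.13). Array signals report transcripts, not the proteins of these factors. Nfe2l1 was lower in A/J than in C3H/HeJ controls, with 506 and 502 against 785 and 845, a log2 difference of -0.68 (SE 0.15, limma adjusted p = 0.0374). In A/J at 3 weeks 0 genes of the list were called by limma, with 0 higher and 1 lower at an unadjusted p under 0.05. In C3H/HeJ 0 were called by limma, with 1 higher and 2 lower at that level. Over all genes 11% in A/J and 16.4% in C3H/HeJ had such a p, in either direction, and limma called 1.04% and 2.83%. In moribund mice 1 of 27 was called, a smaller share than the 15.2% of all genes called there. This gene was Ubqln2, which shuttles ubiquitinated proteins to the proteasome. It fell by 0.62 (SE 0.17, limma adjusted p = 0.0203), with 251 and 271 in controls and 179 and 149.9 in moribund pools. The median of the list in moribund mice was -0.09, unlike the 0.27 of the subunit genes.

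**Figure D4:**
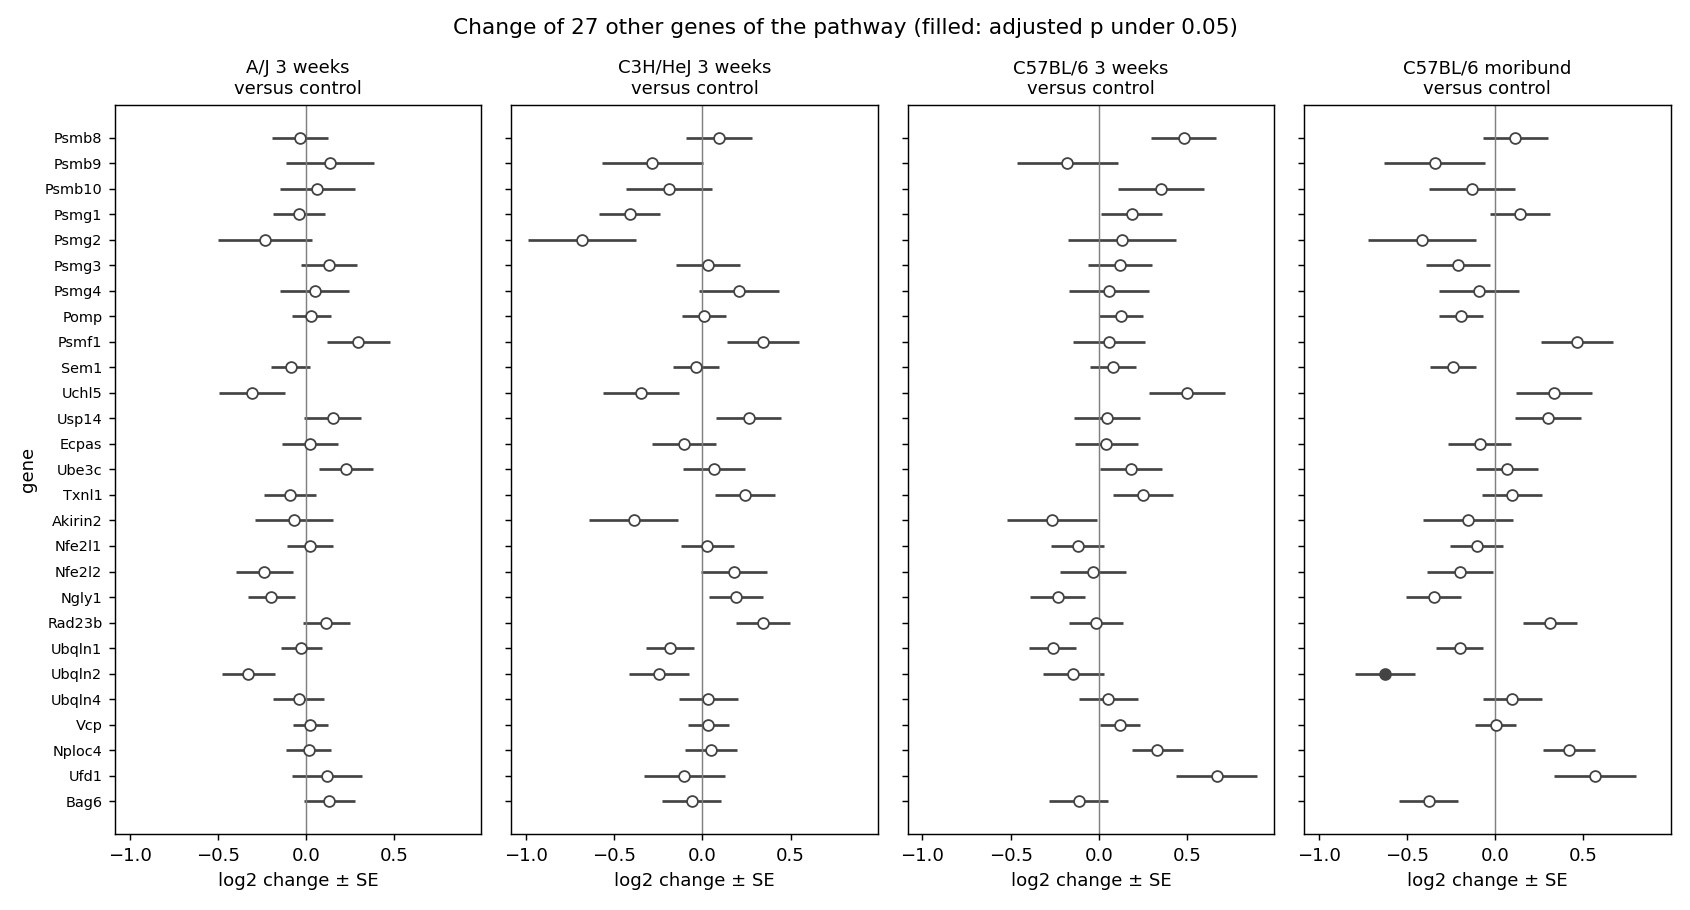
Log2 change with its standard error (x axis) of 27 other genes of the ubiquitin and proteasome pathway (y axis) in the same 4 comparisons; filled points have an adjusted p under 0.05. The points scatter on both sides of 0 in each panel, and Ubqln2 in moribund C57BL/6, at -0.62, is the one filled point.

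Markers of cell types moved with the same arrays. The summed signal of 19 macrophage genes was 13666 to 13770 in C57BL/6 controls, 29360 to 31540 at 3 weeks and 26708 to 32872 in moribund mice, with 15 and 16 of 19 genes called higher. In A/J it went from 14850 to 16011 in controls to 19150 to 22334 at 3 weeks with 5 called, and in C3H/HeJ from 17179 to 18054 to 23284 to 25388 with 13 called. Cell cycle genes summed to 1848 to 1883 in C57BL/6 controls and 3187 to 3892 at 3 weeks, with 10 of 14 called higher, and to 2381 to 2481 in moribund mice, with 4 called. In C3H/HeJ the cell cycle sum was 1948 to 2357 in controls and 3484 to 3499 at 3 weeks. Interferon-stimulated genes had a median change of 0.96 in C57BL/6 and 0.98 in C3H/HeJ at 3 weeks. Endothelial genes fell in C57BL/6, from 5961 to 6093 in controls to 3009 to 4074, with 5 of 6 called, and heart and skeletal muscle genes fell from 5892 to 5933 to 2022 to 2645, with 9 of 11 called. Neutrophil genes summed to 2141 to 2654 in C57BL/6 controls, 6701 to 6916 at 3 weeks and 6313 to 7998 in moribund mice, with 6 and 7 of 8 called higher. In A/J they went from 2126 to 2156 to 7612 to 12193 with 6 called, and in C3H/HeJ from 2128 to 3322 to 7298.2 to 7356 with 5 called. B cell genes in C57BL/6 summed to 1406 to 2689 in controls, 481 to 830.3 at 3 weeks and 799 to 1658 in moribund mice, with 5 and 3 of 5 called lower. Fibroblast genes in C57BL/6 summed to 6899 to 7986 in controls, 9796 to 9922 at 3 weeks and 10997 to 11133 in moribund mice, with 2 of 6 called higher and 1 lower in each comparison. The single C57BL/6 pool at 6 weeks had a fibroblast sum of 11055 and a macrophage sum of 28666 beside a proteasome median of 0.05. Lung epithelium genes summed to 36197 to 37182 in C57BL/6 controls, 30526.5 to 30992 at 3 weeks and 29333 to 33552 in moribund mice. In A/J they went from 33930 to 34633 in controls to 36343 to 36741 at 3 weeks. In C3H/HeJ the controls were at 33624 to 33705 and the pools at 3 weeks at 33583 to 34840.5. The part of these cell types in the proteasome values was not tested.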

How the data were processed

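Each of the 21 arrays measured RNA of 1 pool of whole right lungs. The deposited values are the authors' intensity per probe set on a linear scale, 22690 probe sets per array; the software that summarised them, and how arrays were scaled, is not given here in any source used. After 64 control probe sets were left out, the linear intensities were quantile-normalized, 16 was added to each and log2 was taken. The dimmest 33.3% of probe sets were dropped, leaving 15084, and each gene with 1 symbol was represented by its probe set of highest mean signal, which gave 9079 genes. Printed signals are the quantile-normalized intensities on the linear scale, without the added 16. limma 3.58.1 in R 4.3.3 fitted 1 model over all arrays with a term for each of the 10 groups and for sex (10 residual degrees of freedom, 16.94 after shrinkage). A gene was called at a Benjamini-Hochberg adjusted p under 0.05 over all 9079 genes. The script was tested on simulated data. Depth has no meaning for arrays; the number of pools limits precision, with a median SE of 0.166 over the members in C57BL/6 at 3 weeks.

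By the naming rule any member may be named; full statistics go to called members (up to 8 in each direction) and to fixed catalytic, scaffold, ubiquitin-handling and activator subunits, and of the pathway list to fixed genes and the up to 6 with the smallest p. Other members with statistics, such as Psma3, Psma5 and Psmc4, were chosen after their values were seen. The members and lists were chosen with earlier results of these data known. Alternatives covered scaling, offset, filter, probe set choice, sex term, arrays fitted, weights, threshold and leaving out each array; covariates for the Gapdh probe ratio and for the array median were chosen after seeing the data. Motifs were searched on both strands of RefSeq promoters (GRCm38.p6), 33 of 40 members matched by gene identifier.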

Additional observations from a re-analysis of the deposited data

Results flagged for a closer look

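In the group of 4 A/J pools at 3 weeks, Psma6, an alpha ring subunit, had a signal of 926 in the male pool given 100 mg/kg, while the other pools lay between 1114 and 1128. The gap to the nearest pool made up 0.939 of the whole range of the group, which marks this sample as far from the others. This was 1 of 40 such checks in the only group of 4, and chance alone marks about 1 in 20. The checks covered each of the 39 tested genes and the median over them. Psma6 has 3 probe sets above the brightness filter, whose changes ran from -0.41 to 0.32 in moribund C57BL/6 mice. The other probe sets did not set the flagged A/J pool apart. On 1 it had 678 beside 641, 704 and 620, and on another 89.5 beside 84.8, 76.7 and 31.1. No member's response differed between strains past the test (limma, adjusted p under 0.05).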

How the results depend on the processing

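No paired analysis was possible because different mice went into every pool and no replicate numbers are shared between groups in the labels. The counts of called genes were 3 in C57BL/6 at 3 weeks, 3 in the mean of the strains, 5 in moribund C57BL/6 and 0 elsewhere. With the signals as deposited they were 0, 1 (a lower gene) and 0. With 1 median for every array the mean of the strains had 1 and moribund mice 1. With only the strains compared, C57BL/6 at 3 weeks had 0, moribund mice 1 and the control difference of C57BL/6 and A/J 1. Array weights gave 7, 6 and 2, and 4 and 2 in the controls of C57BL/6 against A/J and C3H/HeJ. An adjusted p under 0.10 gave 7 in the mean, 9 in moribund mice, and 2 and 1 in these controls. Without the sex term C57BL/6 and A/J controls differed in 1; with every probe set, C57BL/6 and C3H/HeJ in 1 and A/J and C3H/HeJ in 1. The Gapdh ratio as a covariate left 1 at 3 weeks in C57BL/6, and the array median left 1 in the mean and 3 in moribund mice. Leaving out single arrays gave 0 to 4, 1 to 5 and 1 to 13, and 0 to 2 for C57BL/6 and A/J controls.

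As deposited, these signs turned: Psma1 -0.019 and Psmd1 -0.13 in C57BL/6 at 3 weeks; Psmb2 -0.0086 and Psmd2 -0.024 in the mean; Psmb5 -0.10, Psmd1 -0.041, Psmd4 -0.17 and Psme3 -0.27 in moribund mice. Psme3 there was -0.013 with 1 median and -0.0035 with the Gapdh ratio, and Psmd1 at 3 weeks -0.0034 with the array median. With single arrays left out, Psma1 ran from -0.034 to 0.26 and Psmd1 from -0.063 to 0.089 in C57BL/6 at 3 weeks, and Psme3 from -0.066 to 0.11 and Psmc1 from -0.025 to 0.99 in moribund mice. The cause was not tested. Most groups hold 2 pools, and 1 pool decided several calls.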
